A study of Mus musculus with 6 samples.

Results

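The genes described here are 27 genes of cholesterol synthesis and sterol regulation, chosen by name from the 24539 genes of the deposited count table: 18 enzymes that make cholesterol, 3 proteins that sense it, 2 that move or store it inside the cell, and 4 that sense its oxidised forms or export it. They were measured by RNA sequencing in eWAT (epididymal white adipose tissue, a fat pad beside the epididymis) of 3 Jmjd8-KO mice and 3 wild-type (WT) mice. All 6 mice were C57BL/6 and were kept on a high-fat diet (HFD) without other treatment, and each was sequenced separately. The sources used here do not give the knockout allele, the age of the mice or the length of the diet, nor what limits this mouse as a model. The comparison asks how expression in this depot differs with loss of Jmjd8.

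Cells make cholesterol from acetyl-CoA, first through the mevalonate pathway to squalene and then through a series of sterols. When the membrane of the endoplasmic reticulum (ER) is low in cholesterol, the protein SCAP carries the transcription factor SREBP2 to the Golgi, where it is cut and released to switch on the genes of synthesis and uptake, while INSIG1 holds the complex back when sterols are plentiful. Excess cholesterol is esterified by SOAT1, and oxidised sterols activate the liver X receptors (LXR), which raise the export pumps ABCA1 and ABCG1. Fat tissue is a large store of cholesterol, held both by adipocytes, as free cholesterol in the droplet and membranes, and by macrophages.

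SREBP2 binds sterol regulatory elements (SRE) close to the start of its target genes, usually beside a CCAAT box, the site of the factor NF-Y. RefSeq promoter windows on GRCm38.p6, each from 250 bases before a gene's start to 50 bases after it, were matched by symbol for 22 of the 27 genes. The letters TCACNCCAC, searched on both strands, were in the window of 1 of these genes, Hmgcs1, and in 1.44% of the 27025 genes with a window. With up to 1 mismatch, a search added after the exact one, they were in 10 of 22 genes, against 26.7% of all genes. A CCAAT box on either strand was in 17 of 22 genes, against 41.1% of all genes. The LXR element of the DR4 type, a direct repeat of AGGTCA with a spacer of 4 bases, was in none of the 22 windows, exactly or with 1 mismatch, against 0.0148% and 0.278% of all genes. At shares so small a match in 22 windows is unlikely for any genes, so its absence says nothing particular about these. Elements outside the windows or with more mismatches were not searched. The stretches below lie before the start and show the exact element (Hmgcs1), matches with 1 mismatch (Hsd17b7, Nsdhl) and the promoter of the only gene that passed the test (Soat1), which holds a CCAAT box but no SRE match. Capitals mark matches to the SRE with up to 1 mismatch and CCAAT boxes, read as ATTGG where they lie on the other strand. They are at chr13:119690101-119690350 (plus strand), chr1:169969242-169969455 (minus strand), chrX:72918271-72918520 (plus strand) and chr1:156474332-156474578 (minus strand).
Hmgcs1: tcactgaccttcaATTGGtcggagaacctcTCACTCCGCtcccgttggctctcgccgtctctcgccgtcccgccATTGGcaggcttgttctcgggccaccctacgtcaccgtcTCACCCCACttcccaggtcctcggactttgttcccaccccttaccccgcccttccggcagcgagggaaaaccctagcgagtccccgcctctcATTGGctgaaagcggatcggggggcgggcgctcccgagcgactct
Hsd17b7: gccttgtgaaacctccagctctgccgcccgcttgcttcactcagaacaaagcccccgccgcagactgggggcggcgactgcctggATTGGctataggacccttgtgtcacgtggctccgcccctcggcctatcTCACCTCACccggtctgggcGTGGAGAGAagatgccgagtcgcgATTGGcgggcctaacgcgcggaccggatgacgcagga
Nsdhl: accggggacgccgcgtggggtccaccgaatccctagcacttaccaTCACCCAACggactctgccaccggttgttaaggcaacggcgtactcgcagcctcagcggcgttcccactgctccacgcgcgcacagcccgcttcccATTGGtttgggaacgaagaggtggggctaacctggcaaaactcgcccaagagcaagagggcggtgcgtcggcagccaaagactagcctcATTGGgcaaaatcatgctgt
Soat1: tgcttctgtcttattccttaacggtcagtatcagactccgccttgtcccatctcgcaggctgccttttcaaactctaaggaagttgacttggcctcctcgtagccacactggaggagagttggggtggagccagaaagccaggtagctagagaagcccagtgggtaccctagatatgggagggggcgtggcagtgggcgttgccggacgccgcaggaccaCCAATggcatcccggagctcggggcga
In the Hmgcs1 stretch the exact element begins 137 bases before the start. A letter match describes the sequence and does not show that a factor binds there.

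Total counts lay between 17598696 and 20598473 per mouse. All 27 genes passed the filter on low counts, and the thinnest was Idi1 with 37 to 57 counts. Jmjd8 itself, the check of the labels, fell to 39.4, 57.7 and 42.3 CPM in the Jmjd8-KO mice, against 112.4, 115.8 and 111.3 CPM in the WT mice (log2 fold change -1.28, SE 0.144, adjusted p = 0.0193). This call, too, was lost in 5 of the 6 fits that left out 1 mouse (log2 fold change -1.47 to -1.18 over the 6, adjusted p up to 0.137), all but the one without Jmjd8-KO replicate 2. CPM are counts scaled by library size and TMM factors to a common total, log2 fold changes are Jmjd8-KO over WT, and p-values are adjusted over the 14322 tested genes of edgeR's quasi-likelihood test, with a gene passing under 0.05. The tissue label was met by its defining markers: all 8 adipocyte markers were detected, with a summed level of 20699 to 23834 CPM in Jmjd8-KO fat and 18862 to 20021 CPM in WT. A library in each group stood apart. Neuron markers summed to 11.6 to 13.5 CPM in Jmjd8-KO fat and to 657.1, 15.9 and 15.4 CPM in WT replicates 1, 2 and 3. Jmjd8-KO replicate 2 lay more than 0.5 on the log2 scale from the mean of the other Jmjd8-KO mice in 21.7% of tested genes. Part of the results that these libraries moved are given with and without them, and the others on all mice only.

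The gene that passed was Soat1, the enzyme that esterifies cholesterol. Of the 18 enzymes of cholesterol synthesis 16 had a negative log2 fold change and 0 passed edgeR's test, though 10 had an unadjusted p under 0.05. Over all tested genes, 50.9% had a negative log2 fold change and 19.1% an unadjusted p under 0.05. Of the 27 genes, 1 fell and 0 rose, where 1.33% of all tested genes fell and 0.789% rose. Of all 27, 21 had a negative and 6 a positive log2 fold change. In 18 of the 27 the 3 Jmjd8-KO mice all lay below the 3 WT mice, a pattern that 15.5% of all tested genes showed, and in 0 did they all lie above, which 14% showed. The median log2 fold change was -0.25 over the 27 genes and -0.01 over all tested genes. It was -0.17 for the 8 genes of the mevalonate pathway, -0.40 for the 10 from squalene to cholesterol, -0.09 for the 3 sensors and 0.03 for the 4 genes of LXR and efflux. Each p-value compares 3 mice with 3, and in whole tissue fewer cells of a type and less RNA per cell cannot be told apart.

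**Figure D1:**
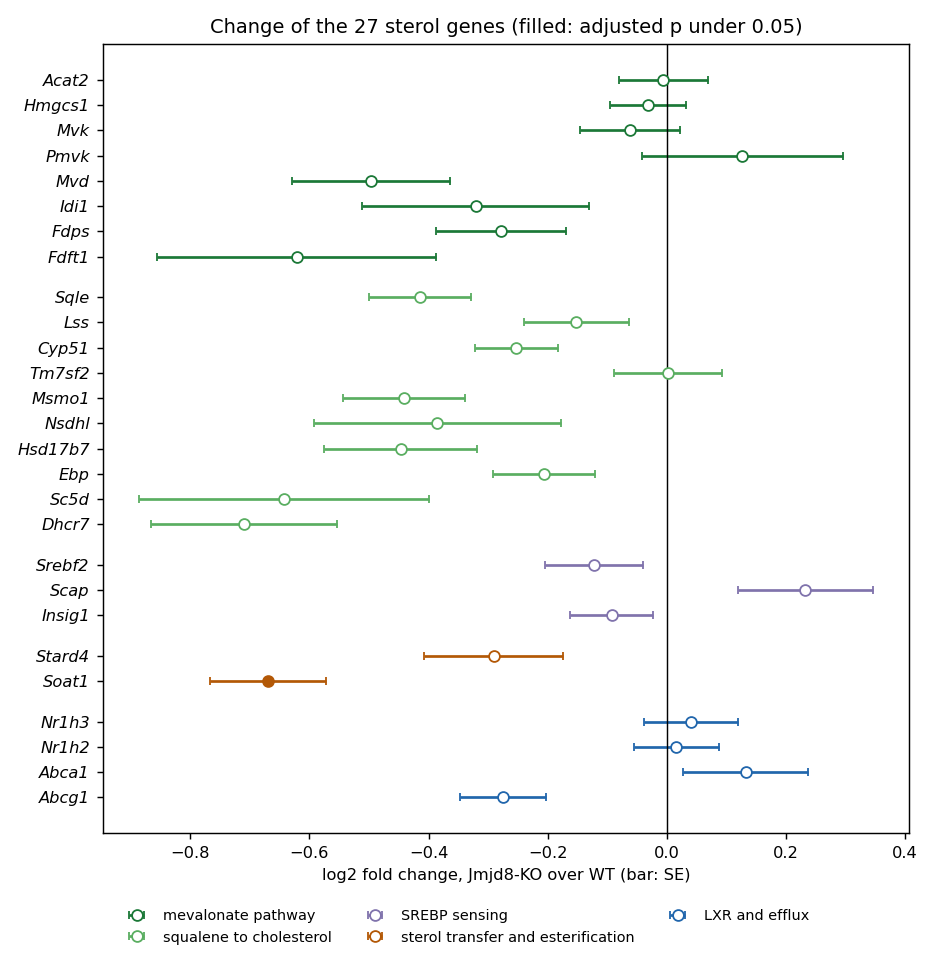
Log2 fold change of each of the 27 genes, Jmjd8-KO over WT, on the x axis, with its standard error as the bar and the genes grouped by role from top to bottom. Soat1 is the only filled point (adjusted p under 0.05), and 16 of the 18 synthesis enzymes lie left of 0 while the LXR and efflux genes lie on both sides.

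The counts of genes that passed depended on single mice and on the test. Without Jmjd8-KO replicate 2, 10 of the 27 genes were lower and 0 higher, where 4.82% of all genes were lower. They were Fdft1, Sqle, Cyp51, Msmo1, Ebp, Sc5d, Dhcr7, Stard4, Soat1 and Abcg1. Without that mouse and WT replicate 1, 15 were lower, where 9.72% of all genes were. In each of the other 5 fits that left out 1 mouse, 0 passed. On all 6 mice, DESeq2 found 6 lower (3.74% of all genes) and limma-voom with sample quality weights found 13 lower (7.21%), and neither found any higher.

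The first steps build mevalonate and carry it to squalene. The 4 genes that open this branch overlapped or nearly met between the groups. Hmgcs1 encodes the HMG-CoA synthase that commits acetyl-CoA to the pathway. It had 439.7, 426.9 and 434.9 CPM in Jmjd8-KO fat and 442.0, 444.8 and 443.0 CPM in WT. The groups did not overlap, and the Jmjd8-KO level was 97.9% of the WT level (log2 fold change -0.03, SE 0.0639, adjusted p = 0.808). Acat2, the cytosolic thiolase that precedes it, was at 47.0 to 51.0 CPM in Jmjd8-KO fat and 47.2 to 51.0 CPM in WT, with overlapping groups. Mvk and Pmvk, the kinases that phosphorylate mevalonate, overlapped as well, with log2 fold changes of -0.06 and 0.13. Pmvk stood at 115.9 CPM in Jmjd8-KO replicate 2, above the 75.4 and 77.3 CPM of Jmjd8-KO replicates 1 and 3 and the 77.1 to 84.7 CPM of the WT mice, and its log2 fold change was -0.10 without that mouse.

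The next 4 genes had lower levels in every Jmjd8-KO mouse than in every WT mouse, a pattern that 15.5% of all tested genes showed. Mvd, the decarboxylase that makes isopentenyl diphosphate, had 19.3, 19.6 and 25.2 CPM in Jmjd8-KO fat and 30.9, 32.2 and 27.3 CPM in WT fat (log2 fold change -0.50, SE 0.133, adjusted p = 0.113). Fdft1, squalene synthase, which commits the pathway to sterols, had 64.5, 33.7 and 65.1 CPM in Jmjd8-KO fat and 84.6, 80.8 and 85.8 CPM in WT fat (-0.62, SE 0.235, adjusted p = 0.217). Jmjd8-KO replicate 2 was far below its group there, and without it Fdft1 had a log2 fold change of -0.37 and passed (adjusted p = 0.0105). Fdps, which makes farnesyl diphosphate, was at 28.2 to 33.9 CPM in Jmjd8-KO fat and 34.6 to 41.3 CPM in WT fat (adjusted p = 0.229). Idi1, the isomerase before it, was at 1.86 to 2.32 CPM in Jmjd8-KO fat and 2.47 to 2.87 CPM in WT fat (adjusted p = 0.394).

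Some of these counts may hold reads of other genes. Acat2 has a near-identical copy in Acat3 (97.7% over 1477 bases), Fdps matches 4 processed pseudogenes, Idi1 2 and Fdft1 1, at 95% identity or more over at least 200 bases. On the same strand Fdps shares 26.7% of its exon bases with Gm43738, Tm7sf2 12.1% with Vps51 and Nr1h3 1.35% with Gm13783. Gm43738 and Gm13783 have no row in the deposited counts. The end of Fdft1 shares 774 exon bases, 18.3% of its total, with Ctsb on the opposite strand, a gene of a lysosomal protease at 3387 to 4020 CPM in Jmjd8-KO fat and 4708 to 4886 CPM in WT fat (log2 fold change -0.35, adjusted p = 0.0987). The sources used here give neither the strand setting nor the treatment of reads with several matches, and the share of Fdft1 counts that comes from Ctsb was not tested.

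From squalene to cholesterol, 9 of 10 genes had a negative log2 fold change, and in 8 the groups did not overlap. Of all tested genes, 50.9% had a negative log2 fold change and 15.5% were lower without overlap. Sqle encodes squalene epoxidase, a step that limits the rate of the pathway after mevalonate. It had 27.05, 26.71 and 29.98 CPM in Jmjd8-KO fat and 38.3, 35.5 and 37.7 CPM in WT. The Jmjd8-KO mice were close to each other and below every WT mouse (log2 fold change -0.41, SE 0.0852, adjusted p = 0.0631). Dhcr7, the reductase of the last step from 7-dehydrocholesterol, had 48.0, 33.5 and 51.9 CPM in Jmjd8-KO fat and 73.1, 71.9 and 73.1 CPM in WT. Its log2 fold change was -0.71 (SE 0.156, adjusted p = 0.0713), and it passed at -0.54 without Jmjd8-KO replicate 2 (adjusted p = 0.00535). Msmo1, which oxidises the methyl groups of the sterol ring, had 46.6, 53.1 and 41.9 CPM in Jmjd8-KO fat and 67.8, 61.5 and 63.1 CPM in WT fat (-0.44, SE 0.102, adjusted p = 0.0822).

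**Figure D2:**
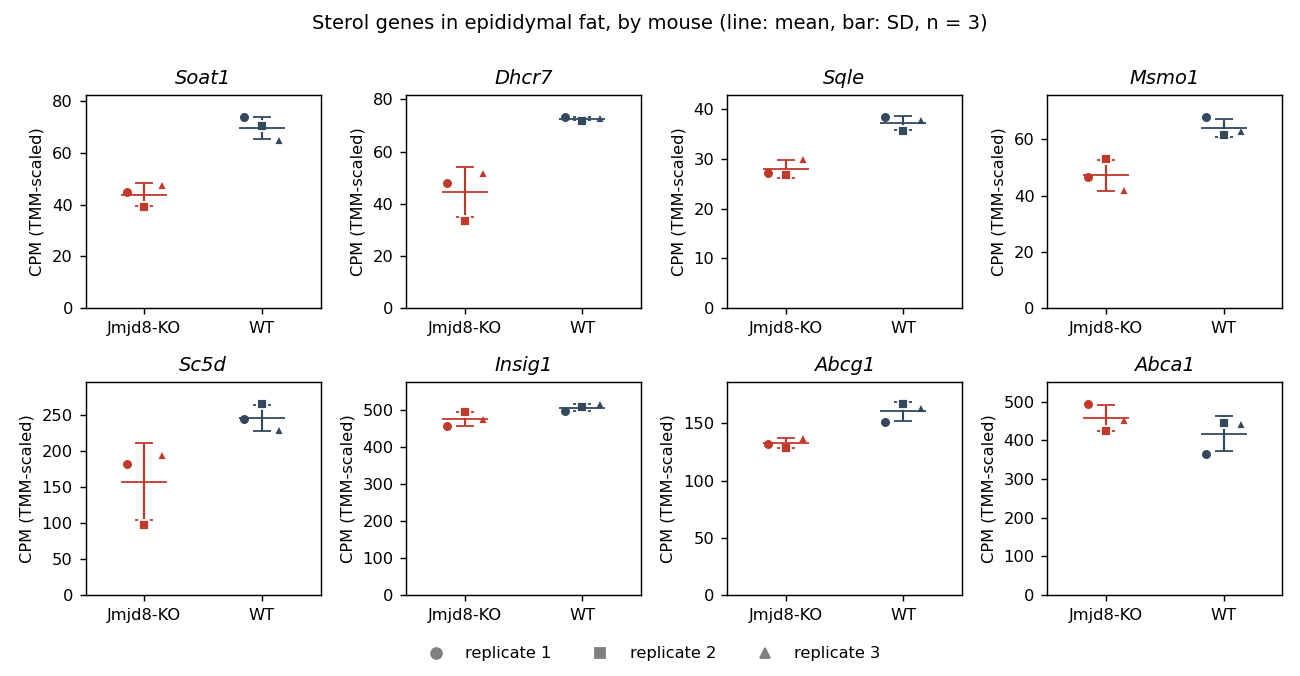
TMM-scaled CPM (y axis, from 0) of 8 genes in each mouse, Jmjd8-KO left and WT right, with the mean as a line and the SD as a bar (n = 3). Soat1, Dhcr7, Sqle, Msmo1, Sc5d, Insig1 and Abcg1 are below every WT mouse in all 3 Jmjd8-KO mice, Insig1 only just. Sc5d spreads widely, with Jmjd8-KO replicate 2 at 96.9 CPM, and Abca1 overlaps.

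Another 5 enzymes of this branch had negative log2 fold changes that did not pass on all mice. Sc5d, the desaturase before Dhcr7, had 182.0, 96.9 and 194.3 CPM in Jmjd8-KO fat and 244.7, 264.8 and 228.9 CPM in WT fat (log2 fold change -0.64, SE 0.243, adjusted p = 0.218). Without Jmjd8-KO replicate 2 it was -0.39 and passed (adjusted p = 0.0274). Hsd17b7, a ketosteroid reductase of the ring, stood at 20.9 to 27.9 CPM in Jmjd8-KO fat and 32.0 to 36.5 CPM in WT fat (-0.45, adjusted p = 0.132), and its partner in removing the same methyl groups, Nsdhl, at 71.6 to 126.5 CPM in Jmjd8-KO fat and 136.7 to 144.6 CPM in WT fat (-0.39, adjusted p = 0.355, and -0.16 without Jmjd8-KO replicate 2). Cyp51, the lanosterol demethylase, was at 84.6 to 86.8 CPM in Jmjd8-KO fat and 97.8 to 107.9 CPM in WT fat (-0.25, adjusted p = 0.12). Ebp, the sterol isomerase, nearly touched, with its highest Jmjd8-KO value at 66.9 and its lowest WT value at 67.1 CPM (-0.21, adjusted p = 0.253).

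The genes that overlapped between the groups were Lss and Tm7sf2. Lss, which folds the epoxide of squalene into lanosterol, was at 113.2 to 117.9 CPM in Jmjd8-KO fat and at 114.2 CPM in WT replicate 1, against 132.7 and 138.4 CPM in the remaining WT pair (log2 fold change -0.15, and -0.24 without WT replicate 1). Tm7sf2, a sterol C14 reductase, had means of 13.99 ± 0.247 CPM in Jmjd8-KO fat and 13.97 ± 0.299 CPM in WT fat (SD, n = 3 each; log2 fold change 0.00, SE 0.0903).

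The shift of the enzymes was alike in the 3 Jmjd8-KO mice as a median over the genes. Relative to the mean of the WT mice, the median log2 level of the 18 enzymes was -0.28, -0.25 and -0.21 in Jmjd8-KO replicates 1, 2 and 3, against -0.0048, 0.016 and 0.017 in the WT mice. WT replicate 1, which carried the neuron markers, was thus close to the other WT mice. The median of the 4 genes of LXR and efflux was -0.04, 0.01 and 0.10 in the Jmjd8-KO mice, against -0.08, 0.03 and 0.06 in the WT mice, with overlapping groups. The enzymes less the LXR genes gave -0.24, -0.26 and -0.31 in the Jmjd8-KO mice, against 0.08, -0.02 and -0.04 in the WT mice. The LXR list joins the receptor genes with the export pumps, whose log2 fold changes had opposite signs (-0.28 for Abcg1 and 0.13 for Abca1). The medians of this paragraph describe lists chosen with earlier results known and carry no test.

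**Figure D3:**
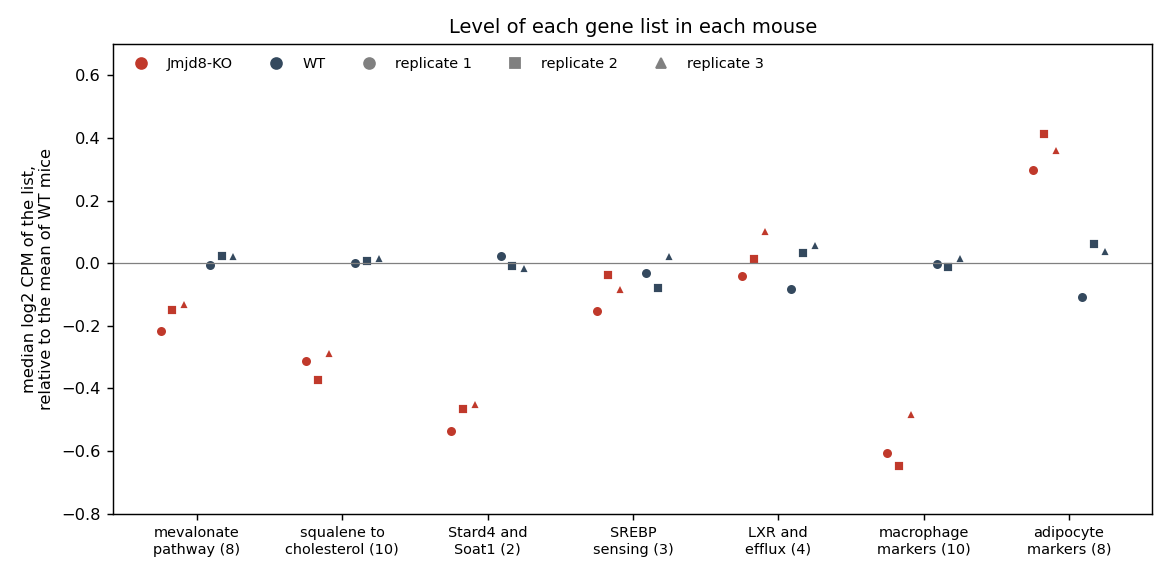
Median log2 CPM of each gene list (number of genes in brackets) in each mouse, relative to the mean of the WT mice, on the y axis, with Jmjd8-KO left of WT within each list and a symbol for each replicate. The Jmjd8-KO mice lie below the WT mice in the mevalonate list, the squalene list, the pair of Stard4 and Soat1 and the macrophage markers, and above them in adipocyte markers, and the groups overlap in the sensing and LXR lists.

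The mouse that stood apart in its group differed from the others by unequal amounts over these genes. Jmjd8-KO replicate 2 held 51.6% of the mean of the other Jmjd8-KO mice for Sc5d, 52.3% for Fdft1, 56.8% for Nsdhl, 67.4% for Dhcr7 and 76.4% for Hsd17b7. In the same mouse Cyp51 (101.9%), Tm7sf2 (100.9%), Lss (103.1%) and Hmgcs1 (97.6%) were close to the other Jmjd8-KO mice, and Msmo1 (119.8%), Stard4 (123.1%) and Pmvk (151.4%) were above. Of the 27 genes, 5 lay beyond 0.5 on the log2 scale, 4 below and 1 above, which is 18.5% of them, against 21.7% of all tested genes.

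**Figure D4:**
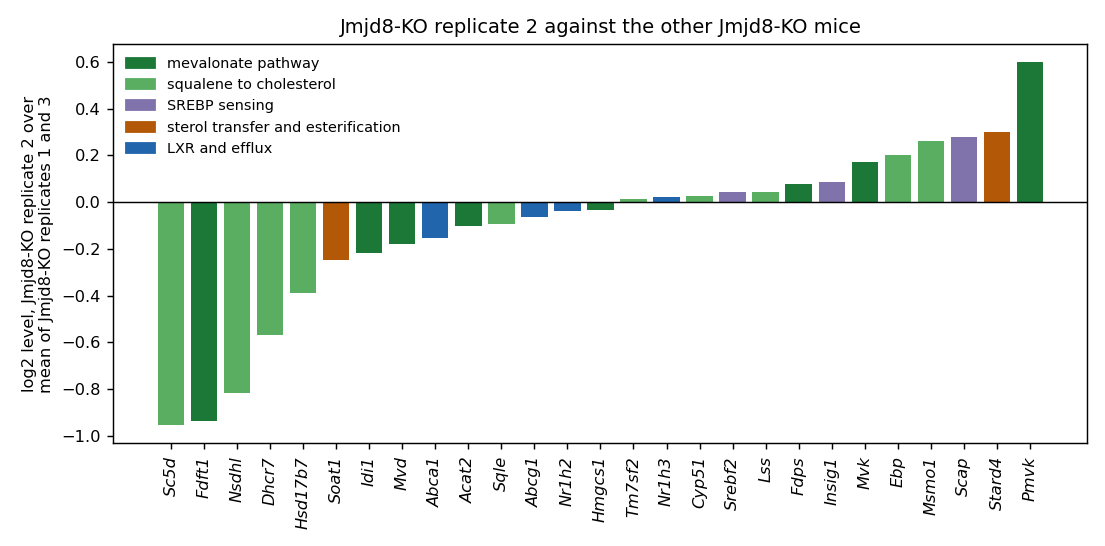
Log2 level of each of the 27 genes in Jmjd8-KO replicate 2 over the mean of Jmjd8-KO replicates 1 and 3 (y axis), ordered along the x axis and coloured by role. Sc5d, Fdft1, Nsdhl and Dhcr7 lie below -0.5, Pmvk lies above 0.5, and the other 22 lie between.

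Of the 3 genes that sense sterols and release SREBP2, 0 passed edgeR's test, DESeq2 or limma-voom at an adjusted p under 0.05. In edgeR's test on all mice 0 had an unadjusted p under 0.05, against 19.1% of all tested genes. Insig1 had an unadjusted p of 0.0321 with limma-voom and of 0.043 in edgeR's test without Jmjd8-KO replicate 2. Srebf2, the gene of SREBP2 itself, had 73.0, 78.2 and 78.6 CPM in Jmjd8-KO fat and 90.9, 78.7 and 80.4 CPM in WT. The highest value was in WT replicate 1, and without that mouse the log2 fold change was -0.06, where it was -0.12 with it (SE 0.0826, adjusted p = 0.452). Scap had 52.5, 65.8 and 55.8 CPM in Jmjd8-KO fat and 47.3, 46.1 and 54.7 CPM in WT, with overlapping groups (0.23, SE 0.113, adjusted p = 0.312, and 0.13 without Jmjd8-KO replicate 2). Insig1, which is itself a target of SREBP2, had 456.7, 494.7 and 475.8 CPM in Jmjd8-KO fat and 496.9, 509.5 and 515.6 CPM in WT fat (-0.09, SE 0.0692, adjusted p = 0.492). Its groups did not overlap, with the highest Jmjd8-KO value just below the lowest WT value.

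Soat1 encodes sterol O-acyltransferase, the ER enzyme that turns free cholesterol into esters for storage in droplets, and is the main such enzyme of macrophages. It had 44.9, 38.9 and 47.6 CPM in Jmjd8-KO fat and 73.7, 70.2 and 65.2 CPM in WT, with no overlap. It fell to 62.9% of the WT level (log2 fold change -0.67, SE 0.0981, adjusted p = 0.0297). The call was lost in 5 of the 6 fits that left out 1 mouse (log2 fold change -0.64 to -0.73, adjusted p = 0.0758 to 0.142), and in the fit without Jmjd8-KO replicate 2 it held at -0.59 (adjusted p = 0.00867). Stard4, a small carrier that moves cholesterol between membranes and is a target of SREBP2, had 15.1, 19.3 and 16.0 CPM in Jmjd8-KO fat and 20.0, 20.1 and 21.5 CPM in WT. It did not pass on all mice (-0.29, SE 0.117, adjusted p = 0.241) and passed without Jmjd8-KO replicate 2 (-0.40, adjusted p = 0.0288).

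Of the 4 genes of LXR and efflux, 0 passed edgeR's test. An unadjusted p under 0.05 was found for 1 (Abcg1, which DESeq2 and limma-voom called), against 19.1% of all tested genes. Nr1h3, the gene of LXR alpha, had 93.9, 99.9 and 102.9 CPM in Jmjd8-KO fat and 90.7, 94.4 and 103.1 CPM in WT fat (log2 fold change 0.04, SE 0.0790, adjusted p = 0.793). Nr1h2, the gene of LXR beta, had 68.2, 70.1 and 75.8 CPM in Jmjd8-KO fat and 70.9, 71.1 and 69.6 CPM in WT fat (0.02, SE 0.0710, adjusted p = 0.912). Both receptors overlapped between the groups. Abca1, which loads cholesterol onto lipid-poor apolipoprotein A-I, had 492.6, 425.1 and 453.1 CPM in Jmjd8-KO fat and 364.3, 445.3 and 441.1 CPM in WT fat (0.13, SE 0.105, adjusted p = 0.517). Its lowest value was in WT replicate 1, and without that mouse its log2 fold change was 0.03.

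Abcg1, which exports cholesterol to mature high-density lipoprotein, had a log2 fold change of the opposite sign. It had 132.0, 128.5 and 137.1 CPM in Jmjd8-KO fat and 151.2, 166.5 and 163.5 CPM in WT fat (log2 fold change -0.28, SE 0.0717, adjusted p = 0.106). The groups did not overlap, and Abcg1 passed without Jmjd8-KO replicate 2 (-0.25, adjusted p = 0.0426). The difference between Abca1 and Abcg1 was not tested.

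Markers of other cell types moved beside these genes. Of 10 macrophage markers, 7 fell and 0 rose (median log2 fold change -0.62), where 1.33% of all tested genes fell. Their summed level was 2841 to 3168 CPM in Jmjd8-KO fat and 4109 to 4211 CPM in WT. The macrophage marker Csf1r was nearly level (-0.02, adjusted p = 0.875). Of 8 adipocyte markers, 1 rose, the glucose transporter Slc2a4, and 0 fell (median 0.31), where 0.789% of all tested genes rose. The log2 fold change was positive for 7 of them and negative for Lep (-0.20, adjusted p = 0.216). Lep was lower in each Jmjd8-KO mouse than in every WT mouse. With limma-voom 5 adipocyte markers were higher and 1 lower, where 998 of the 14322 tested genes were higher and 1032 lower. Without Jmjd8-KO replicate 2, 9 macrophage markers were lower and 4 adipocyte markers higher. In that fit 697 of the 14468 tested genes were lower and 654 higher. In each of the other 5 fits that left out 1 mouse 0 of either list passed. The part of either shift in the values of Soat1, Abcg1 and the enzymes was not tested. The summed levels of the neuron, myelin and astrocyte lists were highest in WT replicate 1, though not every marker was: the astrocyte markers Aldh1l1 and Slc1a3 were higher in each Jmjd8-KO mouse than in WT replicate 1. The 9 myelin markers summed to 293.2 to 356.3 CPM in Jmjd8-KO fat and to 954.5, 368.2 and 349.4 CPM in WT replicates 1, 2 and 3. The 5 astrocyte markers summed to 348.6 to 477.8 CPM in Jmjd8-KO fat and to 523.0, 297.2 and 291.4 CPM in WT replicates 1, 2 and 3. In WT replicate 1, 0 of the 27 genes lay more than 0.5 on the log2 scale from the mean of the other WT mice. Of all tested genes 7.61% did, so a count of 0 in 27 differs little from that share.

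Per kilobase of gene, as the authors' deposited RPKM give it, the 27 genes spanned a wide range. These RPKM were used without the TMM factors (0.966 to 0.978 in Jmjd8-KO and 1.01 to 1.04 in WT). Jmjd8-KO thus lies lower beside WT here than in CPM, and the groups are compared in CPM only. The sensor Insig1 led, with a mean of 162.5 ± 6.2 RPKM in Jmjd8-KO and 181.2 ± 2.78 RPKM in WT (SD, n = 3 each). Hmgcs1 followed at 109.7 ± 1.98 RPKM in Jmjd8-KO and 117.2 ± 1.17 RPKM in WT, then Sc5d at 63.5 ± 21.6 RPKM in Jmjd8-KO and 103.5 ± 6.74 RPKM in WT. The other mevalonate genes were below it, the highest being Pmvk at 47.5 ± 11.9 RPKM in Jmjd8-KO and 45.5 ± 1.94 RPKM in WT. Sqle averaged 9.19 RPKM in Jmjd8-KO and 12.8 RPKM in WT. Idi1 was last at 0.668 RPKM in Jmjd8-KO and 0.872 RPKM in WT, and its pseudogene matches include 1 of 100% identity over 684 bases. Some neighbours in this order did not differ beyond their spread in WT, such as Acat2 (22.6 ± 0.917 RPKM) and Cyp51 (22.2 ± 1.11 RPKM). In Jmjd8-KO this pair was at 21.5 ± 1.02 RPKM and 17.8 ± 0.209 RPKM.

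**Figure D5:**
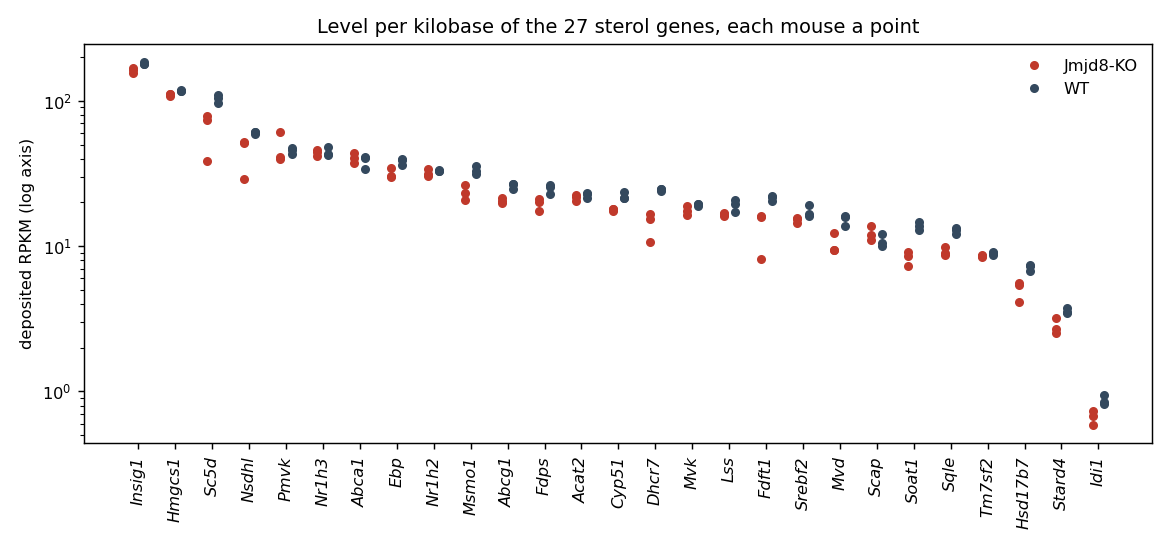
Deposited RPKM of the 27 genes on a log axis, ordered by their mean over the 6 mice, with each mouse a point and Jmjd8-KO left of WT. Insig1 and Hmgcs1 stand highest and Idi1 lowest in the order, and the 3 Jmjd8-KO points of Sc5d, Nsdhl and Fdft1 spread more widely than their WT points.

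Other genes around the pathway were taken from lists by function. Of 11 partners and targets of LXR, 0 passed edgeR's test (median log2 fold change 0.12). In that test 4 had an unadjusted p under 0.05, against 19.1% of all tested genes. DESeq2 called 1 higher, where it called 503 of the 14322 tested genes higher. With limma-voom 1 was higher and 2 lower, where 998 of all tested genes were higher and 1032 lower. Of the 11, 6 had a positive and 5 a negative log2 fold change. Srebf1, the gene of SREBP1, which LXR and insulin induce for fatty acid synthesis, had 411.9, 486.5 and 438.1 CPM in Jmjd8-KO fat and 327.8, 368.1 and 356.9 CPM in WT fat (0.34, SE 0.0904, adjusted p = 0.108). Rxra, the partner with which LXR binds DNA, was at 229.6 to 232.9 CPM in Jmjd8-KO fat and 175.8 to 209.2 CPM in WT fat (0.25, adjusted p = 0.169). For both genes, and for 3 of the 11 in all, the Jmjd8-KO mice lay above every WT mouse, which 14% of all tested genes showed. For 1 of the 11 they lay below every WT mouse, which 15.5% of all tested genes showed.

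Of 14 tested genes of sterol handling, 1 fell and 0 rose (median log2 fold change -0.07). Over all tested genes, 1.33% fell and 0.789% rose. DESeq2 called 3 lower and 1 higher, where it called 536 of the 14322 tested genes lower and 503 higher. With limma-voom 4 were lower and 2 higher, where 1032 of all tested genes were lower and 998 higher. The gene that fell was Nceh1, a hydrolase that frees cholesterol from its esters in macrophages, with 50.03, 39.1 and 53.8 CPM in Jmjd8-KO fat and 94.9, 85.2 and 83.0 CPM in WT fat (-0.88, SE 0.128, adjusted p = 0.0293). It, too, passed in 1 of the 6 fits that left out 1 mouse, the one without Jmjd8-KO replicate 2 (-0.98 to -0.76 over the 6, adjusted p up to 0.143). Cyp27a1, the mitochondrial sterol 27-hydroxylase that makes an LXR ligand, had 62.4, 65.2 and 56.0 CPM in Jmjd8-KO fat and 46.5, 44.3 and 48.7 CPM in WT fat (0.40, SE 0.0850, adjusted p = 0.0681). Lipa, the lysosomal acid lipase that frees cholesterol from lipoproteins, was named after its values were seen: it had 266.4, 155.7 and 274.2 CPM in Jmjd8-KO fat and 420.6, 393.2 and 415.7 CPM in WT fat (-0.82, SE 0.205, adjusted p = 0.0969).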

How the data were processed

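RNA of epididymal fat from 3 Jmjd8-KO and 3 WT mice was sequenced on a BGISEQ machine, per the labels' protocols. The submitters' processing notes name STAR, featureCounts and mm10. The sources used here give no versions, annotation, strand setting or handling of reads with several matches. The authors deposited raw counts and RPKM values for 24539 genes, per the file headers. Counts were tested and RPKM only described. Every count row names a gene.

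Of these, 14322 genes passed edgeR's filterByExpr (minimum count 10), were scaled by TMM and tested with glmQLFit and glmQLFTest (edgeR 4.0.16, R 4.3.3), genotype being the only term, with Benjamini-Hochberg adjustment over all tested genes. SE denotes the absolute log2 fold change divided by the square root of the F statistic. The test was checked on simulated counts. Alternatives used DESeq2 1.42.0, limma 3.58.1, other scalings and filters, a replicate block and mice left out.

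List medians by mouse used log2 CPM with a prior count of 2. Gene positions, overlaps and copies are from GENCODE M21. The genes and lists were chosen with earlier results of these data known. All 27 genes are named; those that passed, and the 2 with the smallest p of each role (all, in roles of 4 or fewer), are given by mouse, with others added after their values were seen. Of the lists of LXR partners and of sterol handling, genes that passed and the 2 with the smallest p are named; a further list of pathway genes is not reported here. Each sample was taken as 1 mouse, which the labels imply by their replicate titles and sample numbers but do not state, so p-values measure the spread between these samples. With 17598696 to 20598473 counts per sample, 3 samples per group limit the precision.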

Additional observations from a re-analysis of the deposited data

How the results depend on the processing

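Soat1 stayed lower under all 14 alternatives, with log2 fold changes of -0.55 to -0.75 (adjusted p from 5.57e-09 to 0.142). The number of genes that passed over the whole table was 304, against 1039 with DESeq2, 2030 with limma-voom and sample quality weights, 156 with no filter on low counts, 2833 without WT replicate 1 and Jmjd8-KO replicate 2 together, and 0 to 1351 when 1 mouse was left out (1351 without Jmjd8-KO replicate 2, at most 17 in the other fits). Of the 27 sterol genes the number lower was 1, against 6 with DESeq2, 13 with limma-voom, 2 with library size alone, 2 with a minimum count of 50, 15 without both of those mice, and 0 to 10 when 1 mouse was left out (10 without Jmjd8-KO replicate 2, 0 in each of the other 5 fits); 0 were higher in every fit. With the replicate number as a block, 5 genes in all and 0 sterol genes passed, and Soat1 had an adjusted p of 0.0941; Jmjd8 itself had 0.0615. The labels number the replicates but do not say whether an equal number pairs a Jmjd8-KO mouse with a WT mouse. Between mice of equal number, deviations from the group means correlated at -0.018, -0.029 and 0.0082. With so few mice per group, these values cannot decide whether the mice are paired, and the block fit is not set aside on them.

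The median log2 fold change of all tested genes was -0.08 with library size alone, and the medians there were -0.33 for all 27 genes, -0.38 for the 18 enzymes, -0.25 for the mevalonate genes, -0.48 from squalene to cholesterol, -0.17 for sensing, -0.56 for Stard4 and Soat1, and -0.048 for LXR and efflux. The mevalonate median was -0.066 with a minimum count of 50 (7 genes, without Idi1) and -0.22 without both mice, and the squalene median -0.32 with limma-voom and -0.33 without both mice. With 1 mouse left out, the medians ran from -0.37 to -0.26 for the 18 enzymes, -0.22 to -0.12 for the mevalonate genes and -0.41 to -0.30 from squalene to cholesterol.

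Genes near 0 turned sign, none of them called. Acat2 was at 0.0043 with DESeq2, 0.037 with limma-voom, 0.0046 with DESeq2-type size factors, 0.041 without both mice and -0.039 to 0.029 with 1 mouse left out. Pmvk was at -0.10 with limma-voom, -0.15 without both mice and -0.10 to 0.24 with 1 mouse left out. Tm7sf2 was at -0.075 with library size alone, -0.0023 with a minimum count of 50, -4.2e-05 without both mice and -0.014 to 0.017 with 1 mouse left out. Nr1h3 was at -0.035 with library size alone, -0.0071 without both mice and -0.0078 to 0.096 with 1 mouse left out. Nr1h2 was at -0.060 with library size alone and -0.028 to 0.049 with 1 mouse left out. The 7 macrophage markers were 4 with no filter and 6 with DESeq2-type size factors. The cause of these differences was not tested.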
